A study of Mus musculus with 2 samples.

Results

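Mitosis and spindle genes were followed in mouse leukemia cells as a set of 43 genes picked by symbol from the 31053 genes of the matrices. They fall into 5 role groups: 8 genes of the kinetochore, centromere and chromosomal passenger complex, 4 kinesins, 12 kinases and other cell cycle control genes, 11 spindle and cytokinesis genes, and 8 chromatin and nuclear envelope genes. Every member passed the minimum of 100 unique molecular identifiers (UMIs, each a distinct captured transcript) over both libraries.

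Before a cell divides, its chromosomes condense and their centromeres assemble kinetochores, the protein plates that grip spindle microtubules. Kinases such as CDK1 and the Aurora kinases start and order these steps, kinesins move along or take apart microtubules, and the anaphase-promoting complex ends mitosis by marking cyclins and securin for destruction. Transcripts of these genes accumulate in G2 and mitosis and are low in resting cells, so the level in a pool of cells depends both on how many cells cycle and on how much each cycling cell holds.

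The leukemia was driven by AML1-ETO9a (AE9a), a truncated fusion protein, and its cells carried GFP, floxed Usp18 and UBCER-Cre, a tamoxifen-dependent recombinase under the ubiquitin C promoter, which is not restricted to leukemia cells. Transplanted mice that had become sick received oil (Usp18f/f by the genotype label) or tamoxifen (Usp18delta/delta), and GFP+ Lin- c-Kit+ spleen cells were sorted 3 days after the first injection. Each group had 1 library of 3 pooled mice, with 8000 cells targeted. The treatment protocol instead describes Usp18+/f cells and a heterozygous deletion, so the libraries are named here by injection only, and an effect of tamoxifen itself and one of Usp18 cannot be told apart.

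With 1 library per group no test was possible. Each value is given with a 95% interval that covers counting error only, and each difference is one between these libraries. The oil library held 6838 cells and 66045700 UMIs after filtering, the tamoxifen library 6472 cells and 60661486 UMIs. Levels are counts scaled to a common library total (CPM), and 3′ tags are not affected by transcript length. The Usp18 transcript was at 5.62 CPM in the oil library and 15.4 CPM in the tamoxifen library, which goes against the direction of a deletion. However, 3′ tags cannot tell whether an exon farther upstream was lost. Isg15 was at 47.8 CPM in the oil library and 113 CPM in the tamoxifen library. For Usp18+/f cells, the paper reports higher Isg15 after Usp18 suppression and reads it as enhanced interferon signaling. Whether Usp18 was deleted in the cells sorted here was not tested. Kit was present at 171 and 232 CPM, while Cd34 had 5 and 15 UMIs and Ptprc, which encodes the leukocyte antigen CD45, had 9 and 3. Of the markers of other cells, those of neutrophils summed to 0.0454 and 0.0495 CPM and those of lymphocytes to 0.636 and 0.857 CPM, with S100a8, Ngp, Ltf, Elane, Mmp8, Trac and Ncr1 at 0 in both, whereas mast cell and basophil genes summed to 2503 and 2149 CPM and erythroid genes to 7696 and 9030 CPM. Ribosomal protein genes held 24.4% and 28.1% of UMIs. The part of these differences in the results below was not tested.

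The promoters of many members share sequence features that the symbol list did not use. Windows of 250 bases before the annotated start were read from RefSeq (GRCm38.p6) for the 37 members with an entry, 41 windows in all. They were searched on both strands for TTTGAA and TTTAAA, forms of the cell cycle homology region bound by the DREAM and MuvB complexes, and for CCAAT, bound by NF-Y. TTTGAA or TTTAAA was in 53.7% of the member windows, against 25.2% of 32851 windows of all genes, and CCAAT was in 78.0% against 33.8%. At least 2 CCAAT motifs were in 61.0% of member windows and 10.1% of all windows. Both kinds of motif were in 46.3% and 8.78%. A match is a description of the letters and not a mapped binding site.

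Windows of 5 members on which the results below turn are shown, 5′ to 3′ on the gene's strand, with the motifs of either strand in capitals. They lie at chr10:69352913-69353162 (minus strand), chr2:164769679-164769928 (plus), chr11:99024190-99024439 (minus), chr2:25224703-25224952 (minus) and chr3:108383554-108383803 (plus). Cdk1, Ube2c and Top2a have both motifs with the nearest TTTGAA 15, 29 and 23 bases before the start. Tubb4b has its TTTGAA 198 bases away, and the Psrc1 window has CCAAT without TTTGAA or TTTAAA.
Cdk1: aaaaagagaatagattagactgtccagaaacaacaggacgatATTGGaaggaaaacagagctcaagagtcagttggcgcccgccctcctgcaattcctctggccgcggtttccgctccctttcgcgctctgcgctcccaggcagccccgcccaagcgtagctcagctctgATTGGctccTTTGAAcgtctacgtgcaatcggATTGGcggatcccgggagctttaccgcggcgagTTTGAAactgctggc
Ube2c: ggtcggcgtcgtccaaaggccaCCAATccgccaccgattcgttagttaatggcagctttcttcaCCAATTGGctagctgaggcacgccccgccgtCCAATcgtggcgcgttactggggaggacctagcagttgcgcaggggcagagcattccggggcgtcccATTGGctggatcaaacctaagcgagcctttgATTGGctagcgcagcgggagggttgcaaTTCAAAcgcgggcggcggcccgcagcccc
Top2a: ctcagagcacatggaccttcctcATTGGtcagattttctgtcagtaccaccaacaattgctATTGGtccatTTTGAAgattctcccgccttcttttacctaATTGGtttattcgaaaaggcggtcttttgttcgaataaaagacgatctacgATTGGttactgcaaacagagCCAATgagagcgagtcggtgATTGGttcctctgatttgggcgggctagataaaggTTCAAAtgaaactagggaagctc
Tubb4b: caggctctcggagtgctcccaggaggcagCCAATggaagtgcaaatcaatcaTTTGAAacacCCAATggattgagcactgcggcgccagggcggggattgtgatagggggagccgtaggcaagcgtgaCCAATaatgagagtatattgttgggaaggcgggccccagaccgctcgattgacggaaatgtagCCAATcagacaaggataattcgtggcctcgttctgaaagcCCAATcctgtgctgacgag
Psrc1: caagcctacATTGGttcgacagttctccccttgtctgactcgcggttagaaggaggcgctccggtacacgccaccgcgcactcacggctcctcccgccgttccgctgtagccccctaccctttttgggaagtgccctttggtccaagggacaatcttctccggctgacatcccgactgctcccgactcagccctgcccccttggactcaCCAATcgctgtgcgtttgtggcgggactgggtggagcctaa

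Cells were thinned to 3000 UMIs and classed by genes that are not members. This set the share of cells rich in mitotic transcripts beside the member level in such cells. A cell was called anchor-high when it held at least 5 UMIs of 35 other mitotic genes, such as Ccnb1, Plk1 and Prc1. Of the rest, a cell with at least 11 UMIs of 41 S phase genes was called S-high, and the remainder low. Of 6330 classed cells in the oil library 31.9% (30.7 to 33.1) were anchor-high, and of 6127 in the tamoxifen library 23.0% (22.0 to 24.1), a difference of -8.88 percentage points (-16.2 when only cells with 1000 genes or more and 5% mitochondrial UMIs or less were used). S-high cells were 17.5% and 11.4%, and low cells 50.6% and 65.6%. The anchor-high class is a range of a score rather than a cell type, and 832 and 569 cells lay within 1 UMI of its border. Because the score is itself made of mitotic transcripts, a joint change of these per cell would appear here as a change of share. The classes thus cannot tell share and level per cell fully apart. A further 508 and 345 cells had fewer than 3000 UMIs and were not classed, and without thinning the anchor-high shares were 30.1% and 21.3%.

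The members followed the anchor genes in both libraries, which the choice of other mitotic genes for the classes made likely beforehand. All 43 members were higher in anchor-high than in low cells of the oil library, and all 43 in the tamoxifen library, with a median fold of 11.6 and 11.7. The fold was at least 10 for 25 members in the oil library and 26 in the tamoxifen library. Top2a, which untangles DNA, had a ratio of 33.1 and 34.1, and Lbr, the lamin B receptor of the inner nuclear membrane, had 1.67 and 1.83. A thinned anchor-high cell held a median of 37 member UMIs in either library, with quartiles of 27 and 50 in the oil library and 26 and 50 in the tamoxifen library. S-high cells held medians of 15 and 13, and low cells 6 and 6. Median depths before thinning were 6408 and 6722 UMIs in low cells and 14072 and 13820 in anchor-high cells.

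**Figure D1:**
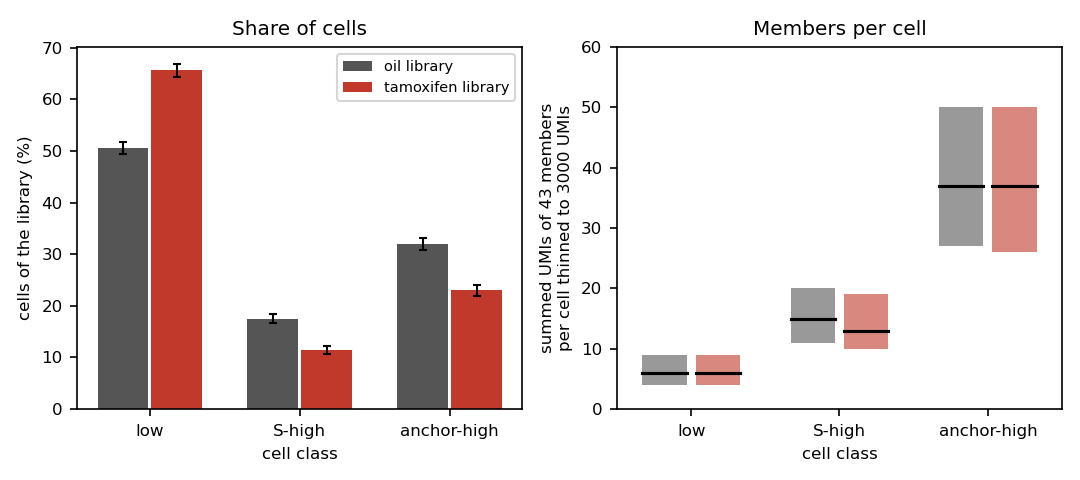
Left, the share of cells (%) in each class of the oil (grey) and tamoxifen (red) library, with 95% exact binomial intervals; right, the summed UMIs of the 43 members per cell thinned to 3000 UMIs, with the median as a line and the quartiles as a box. The anchor-high share was 31.9% and 23.0%, while the median per anchor-high cell was 37 in both libraries.

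Over all cells, the members were lower in the tamoxifen library. Their summed level was 8103 CPM in the oil library and 6533 CPM in the tamoxifen library, from 535179 and 396322 UMIs, a log2 ratio of -0.31 (-0.32 to -0.30), and of -0.57 in the 673 and 771 cells that passed a stricter filter of 1000 genes and 5% mitochondrial UMIs. A total of 41 members were lower, 27 of them by at least 20%, or 62.8% of members. By the same rule 10.7% of 10527 genes were lower, so the share among members is well above that of the matrices. The counting interval lay below 0 for 41 members, against 39.8% of all genes. One exception was Psrc1, which was at least 25% higher, as were 6.79% of all genes, but not under the stricter filter, where its ratio was 0.15. The other exception was Gtse1, whose interval included 0. The median log2 ratio was -0.37 over the members and -0.063 over all genes. Under the stricter filter single ratios moved most for Kif2c and Ndc80, to -1.20 and -1.16, from -0.32 and -0.30.

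Most of the lower sum went, arithmetically, with the class shares. These are taken here and below as shares of UMIs rather than of cells, 44.4% and 33.7% for anchor-high cells. When each class kept its level of the oil library and only the class shares differed, the log2 ratio of the sum was -0.24. When both libraries were given the same class shares, it was -0.063 (-0.069 to -0.057). Within anchor-high cells the sum was 13353 CPM in the oil library and 13104 CPM in the tamoxifen library, a log2 ratio of -0.027 (-0.034 to -0.020), whose sign turned to 0.031 with TMM scaling, 0.044 with median-ratio scaling and 0.039 with totals that leave out mitochondrial and ribosomal protein transcripts. The ratio was -0.16 (-0.18 to -0.15) in S-high cells and -0.14 (-0.15 to -0.12) in low cells.

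Member by member, anchor-high cells of both libraries were close. A total of 28 members were lower and 15 higher in the tamoxifen library, where 65.7% of all genes were lower, and with TMM scaling 14 were lower and 29 higher. Tubb4b alone was at least 20% lower, or 2.33% of members against 7.13% of 9447 genes. Under the stricter filter 4 members were, but the share of all genes was not computed there. None was 25% higher, against 4.62% of genes. The interval lay below 0 for 9 members (30.3% of all genes), above 0 for 5 (10.8%) and included 0 for 29. The median was -0.019 over the members and -0.071 over all genes.

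**Figure D2:**
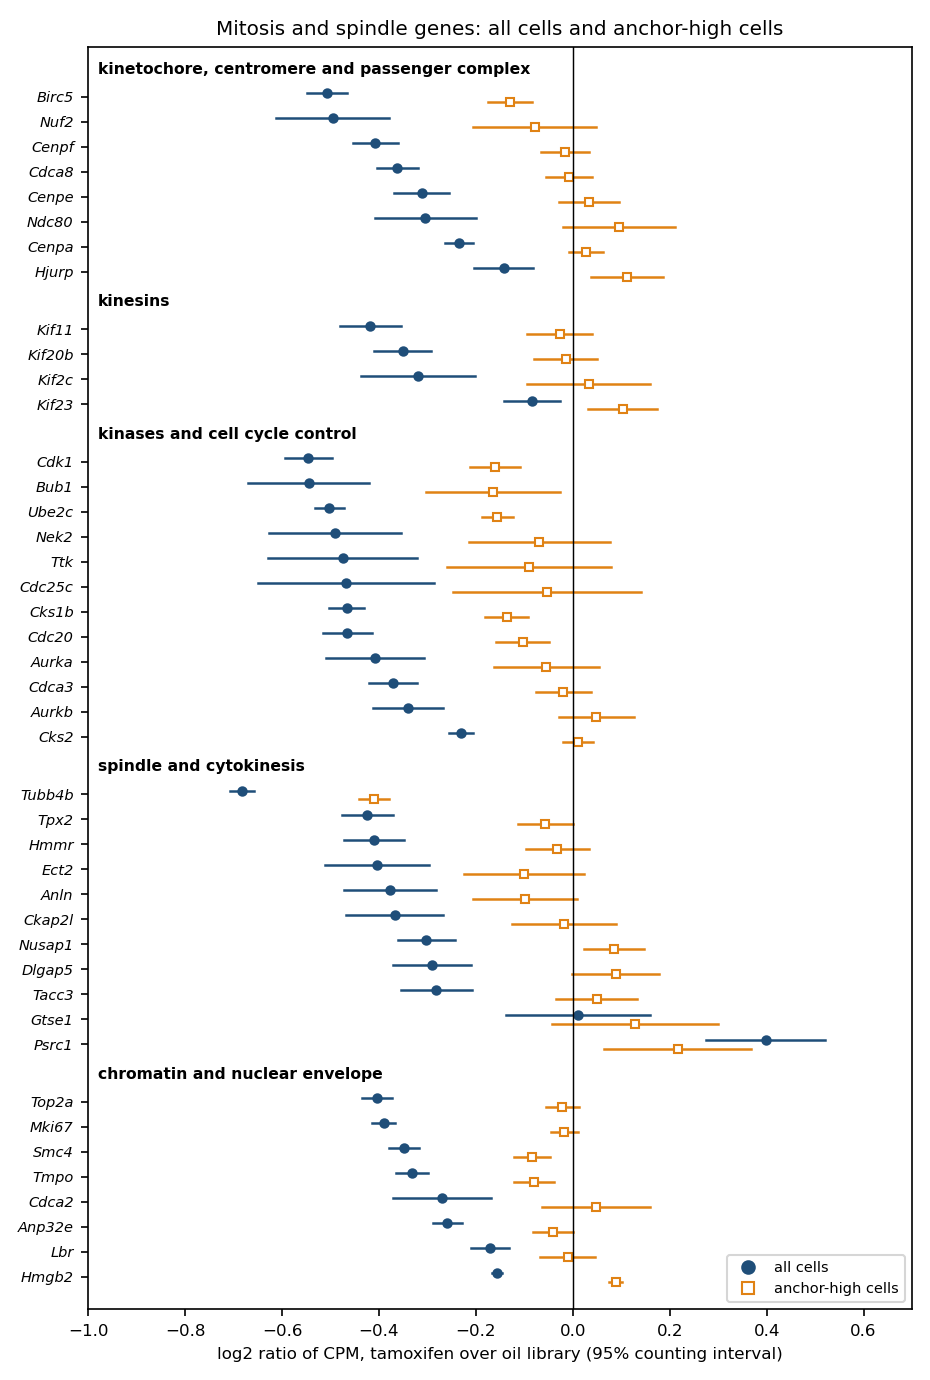
The log2 ratio of CPM, tamoxifen over oil library, of each member by role group in all cells (filled circles) and in anchor-high cells (open squares), with 95% counting intervals. Circles lie left of 0 for 41 of 43 members, while squares gather around 0 except for Tubb4b at -0.41 and Psrc1 at 0.22.

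Cells matched on their anchor count gave the same picture in finer steps. In cells with no anchor UMI the members summed to 2367 CPM in the oil library and 2167 CPM in the tamoxifen library, a log2 ratio of -0.13. The ratio was -0.22 at 1 anchor UMI and -0.16 at 2 to 3. It was -0.070 at 4 to 6 and -0.056 at 7 to 10. In the cells richest in anchors, with 11 to 40, the sums were 16826 and 16977 CPM, a ratio of 0.013 (0.0033 to 0.023). The gap was wider in cells with few anchor UMIs. Scaling moved ratios in anchor-high cells by 0.058 (TMM) and 0.071 (median-ratio), which is more than several of these steps, so the anchor count at which the ratio crosses 0 depends on the scaling.

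**Figure D3:**
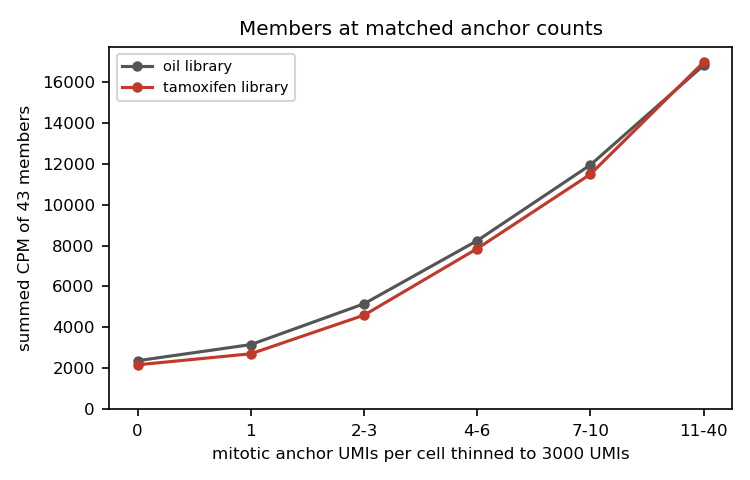
Summed CPM of the 43 members against the number of mitotic anchor UMIs per cell thinned to 3000 UMIs, for the oil (grey) and tamoxifen (red) library. The lines run from 2367 and 2167 CPM at 0 anchor UMIs to 16826 and 16977 CPM at 11 to 40, with the tamoxifen line below at every step but the last.

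The kinetochore and centromere group was lower in all cells and level in anchor-high cells. Its sum was 1040 and 828 CPM, a log2 ratio of -0.33 (-0.35 to -0.31), with 4 of 8 members at least 20% lower. In anchor-high cells it was 1884 and 1874 CPM, a ratio of -0.0077 (-0.027 to 0.011) that was 0.050 with TMM. Cenpa, the histone H3 variant that marks centromeres, was the most abundant at 346 and 294 CPM, a ratio of -0.23 (-0.26 to -0.21), and 0.027 (-0.0076 to 0.061) in anchor-high cells. Hjurp, the chaperone that loads CENP-A, had the ratio nearest 0, with 74.2 and 67.2 CPM at -0.14 (-0.20 to -0.083), and was higher in anchor-high cells at 118 and 128 CPM, or 0.11 (0.038 to 0.19).

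The lowest of the group was Birc5 (ENSMUSG00000017716, chromosome 11, 117849251 to 117855743, plus strand, GRCm38), which encodes survivin of the chromosomal passenger complex. It was at 187 CPM in the oil library and 131 CPM in the tamoxifen library, a log2 ratio of -0.51 (-0.55 to -0.47). Its interval stayed below 0 in anchor-high cells, where 352 and 322 CPM gave -0.13 (-0.17 to -0.085). The other members were at -0.50 for Nuf2 and -0.30 for Ndc80 of the NDC80 complex that binds microtubules, -0.41 for Cenpf and -0.31 for Cenpe of the outer kinetochore, and -0.36 for Cdca8, which encodes borealin, a partner of survivin. In anchor-high cells the intervals of these 5 included 0. Of 23 further kinetochore genes, 23 were below 0 in all cells and 7 at least 20% lower, against 15 below 0 and 1 at least 20% lower in anchor-high cells. Among all genes 61.7% were below 0 over all cells and 65.7% in anchor-high cells. The shares of all genes at least 20% lower were 10.7% and 7.13%. Of the 23 genes, the lowest ratios were those of Cenpt (-0.54) and Cenpi (-0.46), and the highest those of Nsl1 (-0.16) and Cenpb (-0.16).

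Kinesins were lower over all cells and close to level in anchor-high cells, with a summed log2 ratio of -0.12 (-0.24 to 0.0029) in S-high cells. The 4 members summed to 259 CPM in the oil library and 214 CPM in the tamoxifen library, a log2 ratio of -0.28 (-0.31 to -0.25), and to 484 and 490 CPM in anchor-high cells, or 0.018 (-0.020 to 0.055). The ratio in anchor-high cells was 0.075 with TMM and 0.088 with median-ratio scaling, above that interval. Kif11, the motor that pushes spindle poles apart, was the lowest at 76.3 and 57.1 CPM, a ratio of -0.42 (-0.48 to -0.36), but -0.027 (-0.094 to 0.039) in anchor-high cells. Kif20b, a motor of cytokinesis, was the most abundant in the oil library at 83.1 CPM, with 65.2 CPM in the tamoxifen library and a ratio of -0.35 (-0.41 to -0.29). Kif2c, which takes apart microtubule ends at centromeres, was at -0.32.

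Kif23, the motor of the central spindle, stood apart from the other kinesins. It was at 79.3 and 74.8 CPM, a log2 ratio of -0.084 (-0.14 to -0.027), and at 128 and 138 CPM in anchor-high cells, or 0.10 (0.031 to 0.17). Its transcript was also less bound to cycling cells, with a fold of 3.03 between anchor-high and low cells of the oil library, against 26.1 for Kif11. After thinning, 11.8% of low cells and 29.7% of anchor-high cells of the oil library held a Kif23 UMI, and 12.8% and 29.6% in the tamoxifen library.

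Kinases and cell cycle control genes were lower both in all cells and, to a smaller extent, in anchor-high cells. The 12 members summed to 1552 and 1179 CPM, a log2 ratio of -0.40 (-0.41 to -0.38), with 11 at least 20% lower. In anchor-high cells the sum was 2783 and 2629 CPM, a ratio of -0.082 (-0.098 to -0.066), which shrank to -0.024 with TMM and -0.011 with median-ratio scaling. There 5 intervals lay below 0 and 0 above, against 30.3% and 10.8% of all genes.

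Cdk1 (ENSMUSG00000019942, chromosome 10, 69335146 to 69352938, minus strand), the kinase that drives entry into mitosis, had the lowest ratio of the group. It was at 139 CPM in the oil library and 95.1 CPM in the tamoxifen library, a log2 ratio of -0.55 (-0.59 to -0.50), of which class shares alone gave -0.36. In anchor-high cells it was at 271 and 243 CPM, or -0.16 (-0.21 to -0.11). Ube2c, the ubiquitin-conjugating enzyme of the anaphase-promoting complex, was at 346 and 244 CPM, a ratio of -0.50, and -0.16 (-0.19 to -0.12) in anchor-high cells. Cks1b, a small CDK-binding protein, was at -0.47 and -0.14 (-0.18 to -0.092), and Cdc20, an activator of the complex, at -0.47 and -0.10 (-0.16 to -0.049).

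Bub1, a spindle checkpoint kinase, was close to Cdk1 at 20.4 and 14.0 CPM, a log2 ratio of -0.54 (-0.67 to -0.42), and had the lowest ratio of the group in anchor-high cells at 38.6 and 34.5 CPM, or -0.16 (-0.30 to -0.027). Cks2, a close relative of Cks1b, was the most abundant at 446 and 380 CPM with the ratio nearest 0, at -0.23 (-0.26 to -0.21), and at 0.011 (-0.020 to 0.042) in anchor-high cells. The remaining ratios over all cells were -0.49 for Nek2, a centrosome kinase, -0.47 for Ttk, a checkpoint kinase, -0.47 for Cdc25c, the phosphatase that activates CDK1, -0.41 for Aurka of the spindle poles, -0.37 for Cdca3, and -0.34 for Aurkb of the passenger complex. Aurkb had the highest ratio of the group in anchor-high cells, with 110 and 114 CPM, or 0.049 (-0.029 to 0.13). Cdc25c was the least abundant member, with 628 and 417 UMIs.

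**Figure D4:**
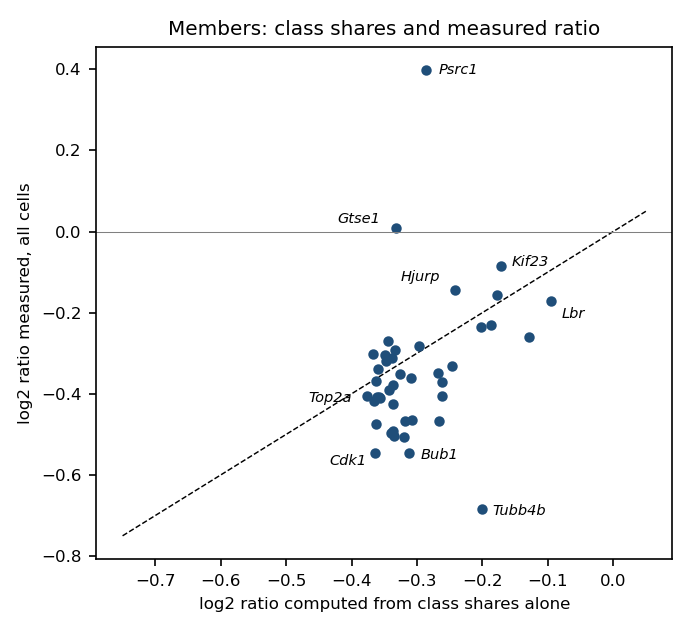
Each point is a member. The x axis shows the log2 ratio (tamoxifen over oil library) that class shares of UMIs alone give. The y axis shows the measured ratio over all cells, and on the dashed line both are equal. Of the 43 members, 27 lie within 0.1 of the line (38.6% of all genes), 14 more than 0.1 below it (45.9%), with Tubb4b farthest, and Psrc1 and Gtse1 above it (15.5%), and with median-ratio scaling these counts are 29, 6 and 8.

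The spindle and cytokinesis group had the lowest sum ratio of the 5 groups, both over all cells and in anchor-high cells. Both ranks rested on 1 member, Tubb4b, without which the kinases and cell cycle control group was lower in each. The 11 members summed to 1058 and 745 CPM, a log2 ratio of -0.51 (-0.52 to -0.49), and to 1822 and 1610 CPM in anchor-high cells, or -0.18 (-0.20 to -0.16), and -0.11 with median-ratio scaling. Tubb4b held 54.5% of the UMIs of this group in the oil library and 48.3% in the tamoxifen library. Without it the other 10 members summed to 481 and 385 CPM over all cells, a ratio of -0.32 (-0.34 to -0.30), and to 942 and 948 CPM in anchor-high cells, or 0.0084 (-0.018 to 0.035), so the lower sum in anchor-high cells was that of Tubb4b. In all cells the ratios were -0.42 for Tpx2, which activates Aurora A on the spindle, -0.41 for Hmmr and -0.30 for Nusap1, which bind spindle microtubules, -0.37 for the spindle protein Ckap2l, -0.29 for Dlgap5 and -0.28 for Tacc3, which stabilize spindle fibers, and -0.40 for Ect2 and -0.38 for Anln, which build the contractile ring. In anchor-high cells the interval of Nusap1 lay above 0, at 0.085 (0.022 to 0.15), and those of the other 7 included 0.

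Tubb4b (ENSMUSG00000036752, chromosome 2, 25222160 to 25224702, minus strand), a beta-tubulin that is also used outside mitosis, was the lowest member in all cells and 82nd lowest of 10527 genes. It was at 577 CPM (38102 UMIs) in the oil library and 359 CPM (21801 UMIs) in the tamoxifen library, a log2 ratio of -0.68 (-0.71 to -0.66), of which class shares alone gave -0.20. It was lower in each class, with 274 and 178 CPM in low cells (-0.62, -0.67 to -0.56) and 880 and 662 CPM in anchor-high cells (-0.41, -0.44 to -0.38). After thinning, 87.2% (85.7 to 88.6) of anchor-high cells held a Tubb4b UMI in the oil library and 78.2% (75.9 to 80.3) in the tamoxifen library. In low cells the shares were 46.2% and 34.8%.

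Other tubulins were on the same side over all cells, but not all of them in anchor-high cells. Of 20 further tubulin and spindle pole genes, 18 were below 0 in all cells, as were 61.7% of all genes, and 10 were at least 20% lower, as were 10.7% of all genes. Tubb5, the most abundant beta-tubulin, was at 933 and 695 CPM (-0.43) and at 1350 and 1197 CPM in anchor-high cells (-0.17, -0.20 to -0.15). Among the others in anchor-high cells, Tuba1a was at -0.75 and Tubb2a at -0.44, but Tuba1b at -0.062 and Tuba1c at 0.039 (-0.036 to 0.11). Tubb6 (-0.84, from 101 and 52 UMIs) and Tuba1a (-0.73) were the lowest, and Cenpj (0.20) and Kif2a (0.015) the highest. Reads of near-identical tubulin genes may be shared between them or left uncounted, so values of single tubulins are less certain. The 20 genes summed to 3111 and 2474 CPM, but they are not all tubulins and include Stmn1 at 909 and 750 CPM.

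Psrc1 (ENSMUSG00000068744, chromosome 3, 108383839 to 108388231, plus strand), a spindle protein that helps chromosomes move to the equator, was the only member whose interval lay above 0 over all cells. It was at 15.1 CPM (1000 UMIs) in the oil library and 19.9 CPM (1210 UMIs) in the tamoxifen library, a log2 ratio of 0.40 (0.28 to 0.52), where class shares alone gave -0.29. The difference was largest in low cells, with 3.99 CPM (89 UMIs) and 14.3 CPM (437 UMIs), a ratio of 1.85 (1.51 to 2.19). It was smaller in anchor-high cells, with 27.6 and 32.1 CPM, or 0.22 (0.065 to 0.37). The fold between anchor-high and low cells was thus 6.93 in the oil library and 2.24 in the tamoxifen library.

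Gtse1 (ENSMUSG00000022385, chromosome 15, 85859745 to 85876573, plus strand), a microtubule-binding protein that also restrains p53, had the same shape at lower counts. It was at 11.7 and 11.8 CPM over all cells, a log2 ratio of 0.010 (-0.14 to 0.16). In low cells it had 41 and 143 UMIs, or 1.84 and 4.69 CPM, a ratio of 1.35 (0.84 to 1.89), and in anchor-high cells 22.4 and 24.5 CPM, or 0.13 (-0.044 to 0.30). The low cells were also split by mitochondrial share. In the 287 and 481 low cells with at most 5% mitochondrial UMIs, Psrc1 had 11 and 28 UMIs, a ratio of 0.50 (-0.55 to 1.65). Gtse1 had 5 and 12 there, a ratio of 0.41 (-1.20 to 2.27). In the 2914 and 3538 low cells over 5%, the ratios were 1.98 (1.62 to 2.34) and 1.45 (0.91 to 2.02). Tubb4b had -0.64 and -0.63 on either side of this border. For Psrc1 and for Gtse1 the intervals of the 2 sides overlap at these few UMIs, so the split cannot tell whether their ratios depend on mitochondrial share.

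Psrc1 was set beside Cdkn1a, which encodes the CDK inhibitor p21, a target of p53. Cdkn1a was at 84.2 and 124 CPM in all cells, a log2 ratio of 0.56 (0.51 to 0.61), and at 64.7 and 93.9 CPM in anchor-high cells, or 0.54. After thinning, in low cells of the tamoxifen library, 67 of 1142 cells with a Cdkn1a UMI also held Psrc1, or 5.87% (4.58 to 7.39), against 60 of 2877 cells without one, or 2.09% (1.60 to 2.68). In the oil library the shares were 1.05% (0.48 to 1.98) and 0.64% (0.36 to 1.05), with overlapping intervals. For Gtse1 the tamoxifen shares were 1.66% (1.0 to 2.59) and 1.04% (0.70 to 1.49), which also overlap. A difference of this kind was not particular to Psrc1: Tubb4b was held by 43.3% (40.4 to 46.3) of the low cells with a Cdkn1a UMI and 31.5% (29.8 to 33.2) of those without one in the tamoxifen library, and by 50.6% (47.2 to 54.0) and 44.6% (42.5 to 46.6) in the oil library. Hmgb2 went the other way in low cells of the tamoxifen library, at 87.7% (85.7 to 89.6) with a Cdkn1a UMI and 91.3% (90.3 to 92.3) without one. In the oil library its shares were 87.7% (85.3 to 89.8) and 90.3% (89.1 to 91.5), which overlap. These are shares of cells within 1 library each, and UMIs from free RNA were not estimated.

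**Figure D5:**
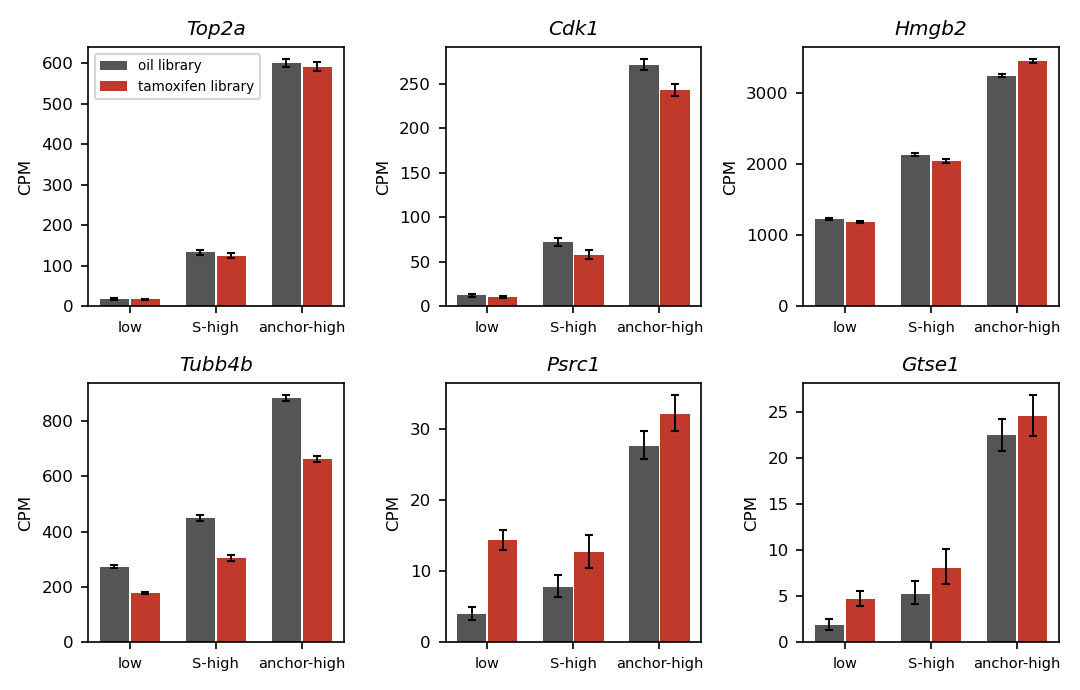
CPM of 6 members in low, S-high and anchor-high cells of the oil (grey) and tamoxifen (red) library, with 95% Poisson intervals. Top2a, Cdk1 and Hmgb2 climb with the classes in both libraries. Tubb4b and Cdk1 are lower in the tamoxifen library in each class, with intervals of the ratio below 0. Psrc1 in low cells is at 3.99 and 14.3 CPM.

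Chromatin and nuclear envelope genes had the sum ratio nearest 0 over all cells, which rested on 1 abundant member, Hmgb2. The 8 members summed to 4193 and 3568 CPM, a log2 ratio of -0.23 (-0.24 to -0.22), and to 6380 and 6501 CPM in anchor-high cells, or 0.027 (0.017 to 0.037). Hmgb2 (ENSMUSG00000054717, chromosome 8, 57511907 to 57515999, plus strand), a DNA-bending protein, held 28.4% of all member UMIs in the oil library and 31.6% in the tamoxifen library. It was at 2300 and 2065 CPM, a ratio of -0.16 (-0.17 to -0.15), and was higher in anchor-high cells, at 3242 and 3447 CPM, or 0.088 (0.074 to 0.10). Without it, the other 7 members of the group summed to 1893 and 1504 CPM over all cells, a ratio of -0.33 (-0.34 to -0.32), and to 3138 and 3055 CPM in anchor-high cells, or -0.039 (-0.053 to -0.024). Likewise the other 42 of the 43 members had a summed ratio of -0.38 in all cells and -0.066 in anchor-high cells. Scaling moved ratios in anchor-high cells by 0.058 (TMM) and 0.071 (median-ratio), so the signs of both sums without Hmgb2 depend on it there.

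Top2a (ENSMUSG00000020914, chromosome 11, 98992943 to 99024189, minus strand) was the lowest of the group and had the highest fold of all members between anchor-high and low cells, as given above. It was at 299 CPM in the oil library and 226 CPM in the tamoxifen library, a log2 ratio of -0.40 (-0.44 to -0.37), of which class shares alone gave -0.38. In anchor-high cells 600 and 591 CPM gave -0.022 (-0.055 to 0.012). Mki67, the proliferation antigen that coats mitotic chromosomes, was similar, with 503 and 384 CPM (-0.39) and 940 and 929 CPM (-0.017) in anchor-high cells. Smc4, a condensin subunit, was at 304 and 239 CPM (-0.35) and had the lowest ratio of the group in anchor-high cells, with 519 and 489 CPM, or -0.085 (-0.12 to -0.048). The other ratios over all cells were -0.33 for Tmpo of the nuclear lamina, -0.27 for Cdca2, which brings the phosphatase PP1 to chromatin, -0.26 for the histone chaperone Anp32e and -0.17 for Lbr. Of 11 further nuclear envelope genes, 10 were below 0 (61.7% of all genes) and 3 at least 20% lower (10.7%), with the lamins Lmnb1 (-0.63) and Lmna (-0.55) the lowest and Lemd3 (0.036) and Sun2 (-0.027) the highest. In anchor-high cells Lmnb1 was at 264 and 206 CPM (-0.36, -0.41 to -0.30) and Lmna at 294 and 219 CPM (-0.42, -0.47 to -0.37).

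Low cells, in which few members are expressed, gave a more mixed result. A total of 40 members reached the count minimum there, with Ttk, Nek2 and Cdc25c below it. At least 20% lower were 5 members, Bub1, Tubb4b, Nuf2, Cks1b and Birc5, or 12.5% of those measured against 11.1% of 9803 genes, and 5 were at least 25% higher, Psrc1, Gtse1, Anln, Cdca2 and Ndc80, against 4.58% of genes. Of the higher ones, Cdca2 (84 and 145 UMIs) and Ndc80 (75 and 128 UMIs) had intervals that included 0. Mast cell and basophil genes also differed in these cells, with a sum of 4440 and 3002 CPM, a ratio of -0.56 (-0.58 to -0.55), and 6 of 7 at least 20% lower, and their part in the low-cell values was not tested. The interval lay below 0 for 16 members (36.6% of all genes) and above 0 for 4 (9.76%), and the median was -0.076 over the members and -0.094 over all genes. In S-high cells 9 of the 42 members measured were at least 20% lower (7.65% of 8733 genes) and 2 at least 25% higher, Psrc1 at 0.70 and Gtse1 at 0.62 (4.2% of genes), with a median of -0.21 against -0.072. Their interval lay below 0 for 23 members (22.1% of all genes) and above 0 for 2 (7.19%). The lowest was Ndc80 at -0.59, whose ratio in anchor-high cells was 0.095 (-0.021 to 0.21).

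The regulators around the members held genes on either side of 0. Of all genes, 61.7% were below 0 over all cells, 10.7% at least 20% lower and 6.79% at least 25% higher, and counts in short lists are read beside these shares. Of 10 further spindle checkpoint genes, 5 were at least 20% lower and 0 at least 25% higher, from Kntc1 (-0.72) and Trip13 (-0.50) to Mapre1 (-0.16) and Mad2l1bp (0.12). Of 19 genes of the anaphase-promoting complex and its regulators, 5 were at least 20% lower and 1 at least 25% higher, with Fbxo5 (-0.43) and Ube2s (-0.42) the lowest and Cdc26 (-0.061) and Anapc13 (0.59) the highest. Anapc13, a small subunit of the complex, was at 72.3 and 107 CPM in anchor-high cells, or 0.56 (0.48 to 0.65). Fbxo5 was at -0.031 (-0.11 to 0.051) there, and Ube2s at -0.23 (-0.27 to -0.19). Of 14 cohesin and condensin genes, 2 were at least 20% lower and 0 at least 25% higher, from Smc2 (-0.40) and Ncaph2 (-0.36) to Wapl (0.11) and Nipbl (0.14).

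Among 18 genes of the DREAM and MuvB complexes and their E2F partners, which switch mitotic genes off and on, 5 were at least 20% lower and 1 at least 25% higher. E2f8 (-0.46) and Mybl2 (-0.44) were the lowest, and Rbl2 (0.22) and Tfdp2 (0.41) the highest. In anchor-high cells E2f8 was at -0.081 (-0.19 to 0.024) and Mybl2 at -0.16 (-0.29 to -0.031), with Rbl2 at 0.15 and Tfdp2 at 0.33. Of 12 mitotic entry inhibitors and phosphatases, 3 were at least 20% lower and 2 at least 25% higher. Pkmyt1 (-0.68), a kinase that holds CDK1 inactive, and Mastl (-0.37), a kinase that promotes mitosis by way of Arpp19, were the lowest, and Arpp19 (0.36), an inhibitor of the phosphatase PP2A when phosphorylated, and Cdkn1a were the highest. In anchor-high cells Pkmyt1 was at 26.0 and 19.8 CPM (-0.39, -0.57 to -0.22) and Arpp19 at 143 and 188 CPM (0.40, 0.33 to 0.46). Mastl was at 18.1 and 17.4 CPM there (-0.059, -0.26 to 0.14).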

How the data were processed

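Chromium V3 3′ libraries were mapped by the authors with Cell Ranger (3.0.2 in the matrix header) to mm10, and the deposited matrices hold raw UMI counts per gene and cell with no normalization. Seurat is named in the submitters' notes. Every row names a gene, and no column of another sample was present. Barcodes under 500 genes or over 10% mitochondrial UMIs were left out; 14 barcodes were listed by both libraries and were not removed for that. Counts were summed per library and class and scaled to CPM with exact Poisson intervals. Ratios have exact conditional binomial intervals and shares exact Clopper-Pearson intervals, all at 95%, for counting error only. Class-standardized ratios use the mean class shares of UMIs in both libraries. Genes with at least 100 UMIs in the cells compared were used as background.

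Scrublet marked 0.307% and 0.0309% of cells as doublets at its automatic threshold and so had not worked, and no doublet was removed. Each member was named with its ratio, values in full were given for the most abundant, highest and lowest of each role group in all and in anchor-high cells, and the 2 highest and lowest genes of each related list were named. Tubb5, Ube2c, Cks1b, Cdc20 and Mki67, the splits by Cdkn1a and by mitochondrial share, and the low-cell values were chosen for description after values were seen. The members and lists were chosen with earlier results of these data known. Markers of macrophages summed to 8.27 and 8.65 CPM. In all, 11 members overlap a gene on the opposite strand and 0 on the same strand, and the 3′ kit keeps strand. Positions are from GENCODE M21 (31011 of 31053 identifiers found). Interval code was tested on simulated counts of tamoxifen over oil for 10600 genes, 200 of them changed, where 95.5% of intervals covered the true value. Alternatives were other cell filters, scalings, class borders, thinning depths and count minimums. Counts and intervals were computed with scipy 1.17.1, numpy 2.4.6 and pandas 2.3.3 under Python 3.11.15, TMM factors with edgeR 4.0.16 (R 4.3.3), doublet scores with scanpy 1.11.5 and figures with matplotlib 3.10.9.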

Additional observations from a re-analysis of the deposited data

How the results depend on the processing

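No paired analysis was possible because there is a lone library on each side. None of the 344 alternative values of single members over all cells (8 settings) turned sign against a called direction, and 216 moved by less than the counting interval. The summed members stayed lower in the tamoxifen library over all cells in each setting run. In anchor-high cells, where the difference was -0.027, its sign depended on the scaling.

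The sum over all cells (-0.31) was -0.32 with all barcodes, -0.57 with a strict filter of 1000 genes and 5% mitochondrial UMIs (673 and 771 cells), -0.27 with TMM, -0.25 with median-ratio scaling, -0.23 without mitochondrial and ribosomal protein genes in the total and -0.33 with equal weight per cell. The sum in anchor-high cells was, in the same order, -0.012, -0.094, 0.031, 0.044, 0.039 and -0.017, and -0.0077 without the 6% highest Scrublet scores, -0.046 and -0.013 with class borders at the 65th and 85th percentile and -0.012 at 5000 UMIs. The class-standardized sum (-0.063) was -0.051, -0.13, -0.021, -0.00026, 0.0092 and -0.054 in the first order, then -0.040 without the Scrublet scores, -0.051 and -0.13 with the class borders, and -0.047 and -0.076 at 2000 and 5000 UMIs. The anchor-high share differed by -16.2 points with the strict filter, -11.9 and -5.14 with the class borders and -10.5 at 2000 UMIs.

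The median member ratio over all cells (-0.37) was -0.69 with the strict filter and -0.29 without mitochondrial and ribosomal protein genes. In anchor-high cells (-0.019) it was -0.13 with the strict filter, 0.051 with median-ratio scaling and 0.047 without those genes. At 1.5-fold, 1 member was lower over all cells and 0 in anchor-high cells, and with the strict filter 4 were at least 20% lower in anchor-high cells. The shares of all genes in these settings were not computed. Members lower and higher in anchor-high cells (28 and 15) were 34 and 9 with the strict filter, 22 and 21 without the Scrublet scores, 13 and 30 with median-ratio scaling and 14 and 29 without mitochondrial and ribosomal protein genes. With the strict filter single members over all cells ran from -1.20 for Kif2c and -1.16 for Ndc80 to 0.15 for Psrc1, and Psrc1 and Gtse1 in low cells were at 0.46 and 0.16. The cause of these moves was not tested. Leaving out the barcodes that both libraries list, an alternative chosen after seeing the data like the split by mitochondrial share, the sums without Tubb4b or Hmgb2 and the rescaled counts beside the class-share ratio, left the member sum at -0.31.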

Other observations

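Barcodes that the cell filter left out, 936 in the oil library and 839 in the tamoxifen library, also held member transcripts. They summed to 5429 CPM and 4204 CPM, a log2 ratio of -0.37 (-0.40 to -0.34), on the same side as the cells that were kept.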
